A study of Mus musculus with 22 samples.

Results

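The set described here holds the genes of the ionotropic glutamate receptor and GABA-A receptor subunits. It was defined by a pattern on the gene name that takes in the AMPA (Gria), NMDA (Grin), kainate (Grik), delta (Grid) and GABA-A (Gabr) receptor families, and 37 genes matched of the 24490 gene entries in each deposited table. There were 4 AMPA, 7 NMDA, 5 kainate, 2 delta and 19 GABA-A receptor genes. RNA was measured in 22 libraries of cultured cortical neurons from C57BL/6 mouse embryos (E16.5) of the genotype Creb1-/-, which lack the transcription factor CREB, and that genotype was shared by all groups, controls included. Which part of Creb1 is deleted is not stated. All neurons were used at 7 days in vitro and had been silenced from day 6, for 12 to 16 h, before herpes simplex virus (HSV) was added. Silencing used 1 µM tetrodotoxin (TTX), which blocks sodium channels, with 100 µM D-AP5, which blocks NMDA receptors. After the virus period all neurons were depolarized for 2 h with 55 mM KCl. After 8 h of virus there were 2 libraries with CREB lacking both modification sites (S40A-S133A), 2 with CREB lacking the phosphorylation site (S133A), 4 with CREB lacking the glycosylation site (S40A), 4 with wild-type CREB (WT) and 4 with GFP as the control. After 4 h there were 2 libraries each for S40A, WT and GFP. The promoter that drives the viral CREB, the share of neurons infected and the number of embryos per library are not given in the sources used here. Whether replicates came from separate cultures is not stated. The p-values therefore cover the spread between the libraries alone, and that spread may be technical.

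Ionotropic glutamate receptors are tetrameric cation channels that carry most fast excitation in the cortex, and GABA-A receptors are pentameric chloride channels that carry most fast inhibition. Each receptor is built from a choice of subunits, and the subunit mixture sets conductance, calcium entry, drug sensitivity and position at or outside the synapse. In the rodent cortex the mixture shifts during development and with activity, for example from GluN2B-rich towards GluN2A-rich NMDA receptors.

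Levels are given as scaled FPKM, the deposited fragments per transcript length and library size after scaling between libraries. Comparisons of level between genes, and shares within a class, rest on the length correction in the deposited values. That correction was not checked here. Of the 37 genes, 28 had a mean of at least 1 scaled FPKM over the 22 libraries and were tested (4 AMPA, 5 NMDA, 5 kainate, 2 delta and 12 GABA-A), and 9 did not. The numbers in the deposited file names placed the libraries in runs, except that runs C1 and C2 were split by replicate number alone. The file numbers of those libraries follow one another virus by virus. Deviations of libraries of the same run correlated at -0.042 to 0.176 in C1 and -0.018 to 0.044 in C2. Values given by C1 and C2 therefore rest on an assumed pairing. What the file numbers mark is not stated. Replicates 1 and 2 of the 4 h groups formed runs A and B. At 8 h, replicates 1 and 2 of S40A, WT and GFP formed runs C1 and C2, and replicates 3 and 4 of those groups formed runs D1 and D2 together with replicates 1 and 2 of S40A-S133A and S133A. The estimated depth was 18.9 to 36.5 M fragments per library (M for mega), a rough value for all but run A and GFP replicate 2 at 8 h. Creb1, the gene supplied by the virus, stood at 568 to 2312 scaled FPKM in the CREB libraries at 8 h and 235 to 269 in those at 4 h, against 9.59 to 14.9 in GFP libraries at 8 h and 11.8 to 15.7 in GFP libraries at 4 h. The neuronal markers Tubb3, Map2, Rbfox3, Snap25 and Syt1 summed to 615 to 915 scaled FPKM in each library, and markers of astrocytes and radial glia to 64.5 to 715. The summed markers were 3.32 to 25.5 scaled FPKM for microglia and 1.03 to 8.05 for vascular cells. In bulk RNA, fewer cells of a type and less RNA per cell cannot be told apart.

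Some libraries stood apart. Low FPKM values of genes with a single transcript, adjusted for its length, were examined near their most frequent value, taken as 1 read. In run A and in GFP replicate 2 at 8 h, 75.4% to 79.2% of these lay within 0.05 (log2) of their median. The other 18 libraries had 12.2% to 27.4%. The nearest library to GFP replicate 2 at 8 h correlated with it at 0.859 across genes, whereas the other libraries had nearest values of 0.916 to 0.943. The run D1 libraries of S40A-S133A and S133A differed from the rest of their run in several receptor genes. Gabrd stood at 4.59 scaled FPKM in the S40A-S133A and 6.12 in the S133A library of run D1, against 21.2 (S40A), 19.2 (WT) and 18.6 (GFP) in the other run D1 libraries. The other 8 h libraries lay between 11.8 and 43.8 for Gabrd, and the 4 h libraries between 1.35 and 8.51. Several genes, chosen after their values were seen, lay likewise on the side of the 4 h libraries and outside the other 8 h libraries. Grin2d stood at 3.42 with S40A-S133A and 3.40 with S133A, against 7.66 to 22.3 in the other 8 h libraries. Gabra2 stood at 34.2 and 34.3 there, against 13.8 to 24.9, and Gria2 at 56.2 and 49.8, against 28.8 to 43.7. Creb1 stood at 675 scaled FPKM in that S40A-S133A library and 568 in that S133A library, above the 4 h CREB libraries. Why the receptor genes differed in these libraries was not tested. The 8 h comparisons of S40A-S133A and S133A are given below without these libraries as well, with 1 library left in each group that was assumed to vary like the others.

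Among the AMPA receptor genes, Gria2 had the highest level, at 44.3 scaled FPKM on average and 28.8 to 67.7 over the 22 libraries. It encodes GluA2, the subunit whose edited form makes AMPA receptors nearly impermeable to calcium. Gria1, whose product is moved to synapses in plasticity, averaged 34.5 scaled FPKM. Gria4 averaged 16.8 and Gria3 12.1, and Gria2 made up 33.8% to 49.6% of the summed AMPA level in each library.

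Grin1, which encodes the subunit that every NMDA receptor needs, led its class at 42.2 scaled FPKM (28.6 to 59.2). Its partners were far lower. Grin2d, known from embryonic neurons and interneurons, averaged 10.9 scaled FPKM, and Grin2b, the main cortical partner before birth, averaged 6.56. Grin3a, whose subunit lowers calcium entry, averaged 3.09. Grin2a, which rises after birth, averaged 1.34 and was the lowest gene above the minimum. Grin2c at 0.406 was the nearest gene below the minimum, and Grin3b was listed at 0 in all 22 libraries. The Grin2 mixture varied widely, with Grin2b at 19.6% to 66.9% and Grin2d at 21.8% to 72.2% of the summed Grin2 level.

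Grik5 had the highest level of all 37 genes, at 59.7 scaled FPKM on average and 45.1 to 74.5 over the libraries. It encodes GluK5, a high-affinity kainate subunit that needs a partner from Grik1, Grik2 or Grik3 to form a channel. Those partners averaged 8.73 (Grik1), 12.6 (Grik2) and 11.4 (Grik3) scaled FPKM, and Grik4, the other high-affinity subunit, averaged 3.21. Grik5 made up 51.7% to 72.9% of the summed kainate level. The delta receptor gene Grid1, whose product binds cerebellins and organizes synapses, averaged 12.3 scaled FPKM.

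Several GABA-A receptor subunit genes reached levels like those of the AMPA receptor genes. Gabra2, an alpha subunit gene known from the embryonic and early postnatal brain, averaged 27.1 scaled FPKM (13.8 to 47.9), and Gabra5, whose subunit is found largely outside synapses, averaged 21.6. Gabra2 made up 28.3% to 52.0% of the summed alpha subunit level in each library. Gabrd averaged 16.9. Gabrb2 averaged 18.9, Gabra3 8.28, Gabrb1 6.77, Gabra4 6.32, Gabrg3 4.94 and Gabrg1 3.69. The 7 GABA-A genes under the minimum were Gabra6, Gabre, Gabrp, Gabrq, Gabrr1, Gabrr2 and Gabrr3, with means of 0.00281 (Gabra6) to 0.348 (Gabrr2). Precision differed between genes and did not follow level in every case. The authors' deposited Cufflinks bounds lay a median of 2.46% of the value away for Grik5 and 17.0% for Grin2a. They lay 3.95% away for Grik3, against 5.81% for Gabra2, which had the higher level.

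**Figure D1:**
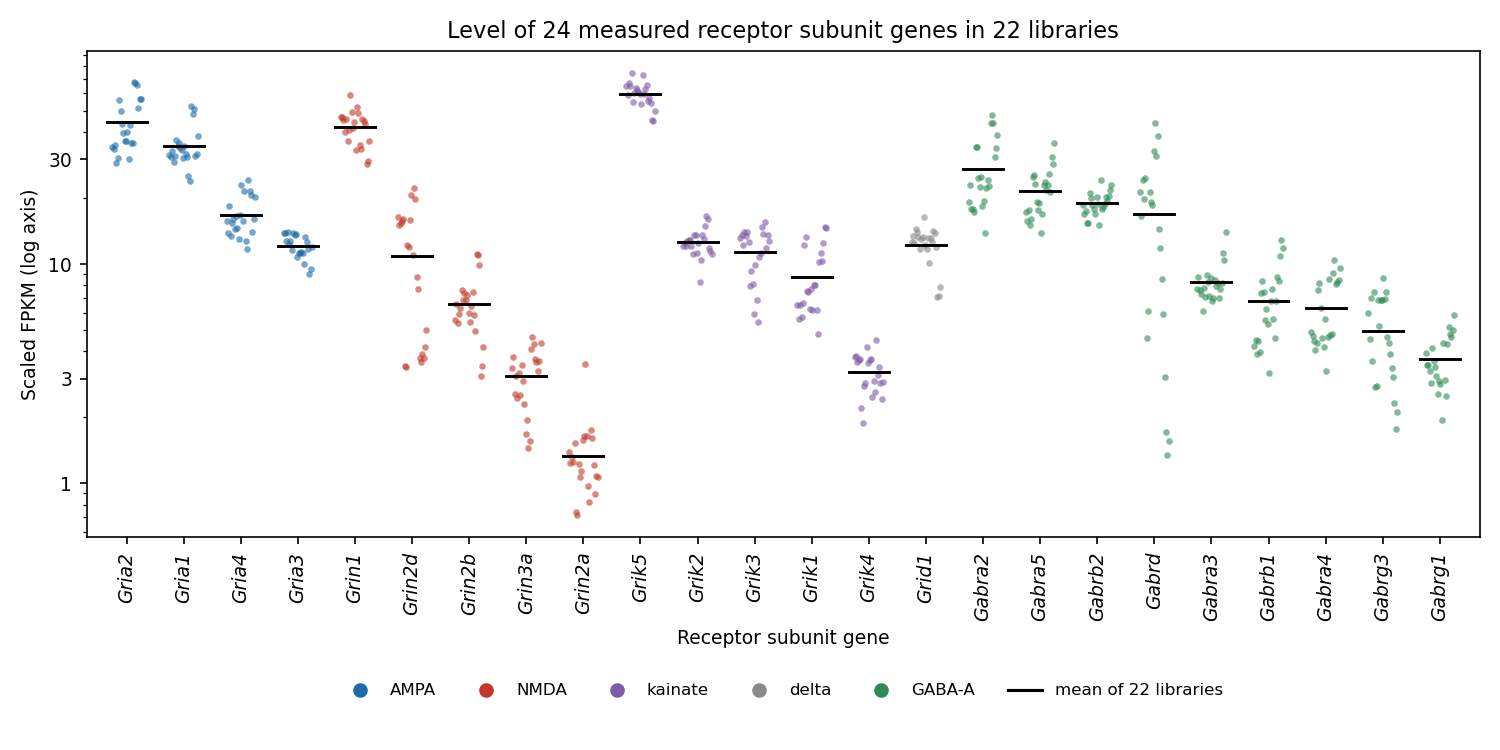
Scaled FPKM (log axis) of 24 measured receptor subunit genes, 1 point per library and a bar at the mean of the 22 libraries, coloured by receptor class. Gabrd spans 1.35 to 43.8 scaled FPKM, the widest range among them, and Grik5 45.1 to 74.5.

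The genes differed greatly in how much they varied between libraries. Gabrd, which encodes the delta subunit of extrasynaptic receptors that carry tonic inhibition, had a highest value 32.5 times its lowest. Grin2d followed with a ratio of 6.55. Gabrg3 had 4.92, Grin2a 4.86 and Gabrb1 4.04, while Gria3 had 1.55, Gabrb2 1.59 and Grik5 1.65. The ratio of Grin2a rests on GFP replicate 2 at 8 h, at 3.49 scaled FPKM, as the next highest library stood at 1.74.

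**Figure D2:**
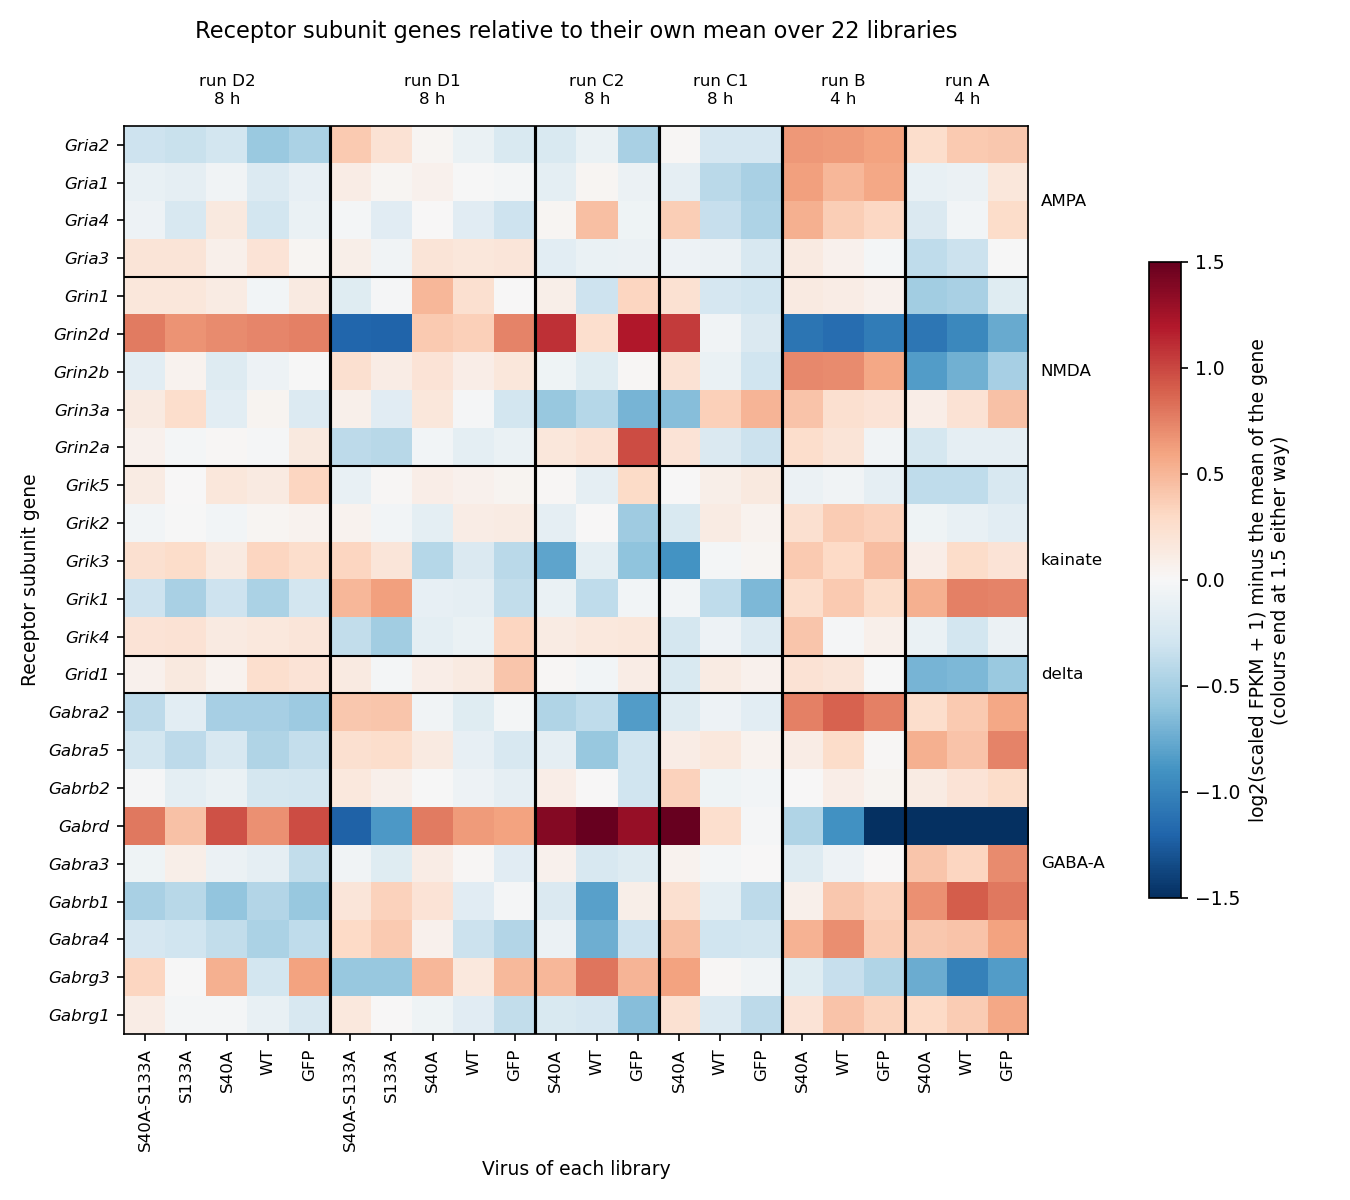
Difference of log2(scaled FPKM + 1) from the mean of each gene over the 22 libraries (colour), for 24 measured receptor subunit genes (rows, by class) in each library (columns, by run and virus). Gabrd is low throughout runs A and B and in the S40A-S133A and S133A libraries of run D1 (4.59 and 6.12 scaled FPKM), and Gria2 is high in runs A and B.

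CREB binds the palindrome TGACGTCA, the cyclic AMP response element (CRE), or its 5-base core TGACG. RefSeq promoters (build GRCm38.p6, 250 bases before to 50 after the gene start) were available for 25 of the 37 genes, as 29 promoters. The palindrome was in 0 of the 29 receptor promoters and in 1.79% of all 32851. The core, searched on both strands and counted also where it lies inside the palindrome, was in 4 of the 29 (13.8%) and in 20.8% of all promoters. The 4 were those of Grin1 with 2 copies and of Grik2, Gabrb2 and Gabrr1 with 1 each. For 17 of the 29, the last 40 bases of the window, all after the start, lay in an annotated transcript of the gene. The windows of Grin1 and Grik2 were among the 17, and the windows of Gabrb2 and Gabrr1 that hold the core were not. The 250 bases before the start are printed for Grin1, the gene with the most copies, and for Gabrg1, Gabra2 and Gabra4, neighbours on chromosome 5 that differed together between 8 h and 4 h GFP libraries. Grik2 is shown as 30 bases around the core. Capitals mark the core, read here on the gene's strand as CGTCA. A match describes the letters only and is no binding site.
Grin1 (chr2:25319188-25319437, minus strand): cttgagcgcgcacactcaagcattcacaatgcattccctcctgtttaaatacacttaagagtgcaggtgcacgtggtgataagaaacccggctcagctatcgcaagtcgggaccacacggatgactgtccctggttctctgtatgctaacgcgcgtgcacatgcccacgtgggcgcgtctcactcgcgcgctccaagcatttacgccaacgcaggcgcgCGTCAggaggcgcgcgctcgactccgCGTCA
Gabrg1 (chr5:70842618-70842867, minus strand): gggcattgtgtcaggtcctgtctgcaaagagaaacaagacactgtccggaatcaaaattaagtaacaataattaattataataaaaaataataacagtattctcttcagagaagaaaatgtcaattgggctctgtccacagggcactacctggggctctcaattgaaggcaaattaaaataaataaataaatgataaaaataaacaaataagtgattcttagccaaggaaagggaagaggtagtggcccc
Gabra2 (chr5:71095850-71096099, minus strand): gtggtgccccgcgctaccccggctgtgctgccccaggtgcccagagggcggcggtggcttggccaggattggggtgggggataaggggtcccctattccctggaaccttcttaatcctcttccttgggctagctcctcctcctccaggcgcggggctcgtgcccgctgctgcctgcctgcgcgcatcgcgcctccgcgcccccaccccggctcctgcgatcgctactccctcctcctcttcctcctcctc
Gabra4 (chr5:71658309-71658558, minus strand): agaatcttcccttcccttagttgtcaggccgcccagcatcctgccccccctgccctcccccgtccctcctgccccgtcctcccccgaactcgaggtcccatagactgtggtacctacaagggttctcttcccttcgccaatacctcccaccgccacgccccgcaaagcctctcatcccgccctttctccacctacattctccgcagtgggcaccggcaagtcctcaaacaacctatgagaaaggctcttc
Grik2 (chr10:49788742-49788771, minus strand): cggtctccgccgcCGTCActtgcgctctcg
The 3 chromosome 5 promoters hold no core in these windows.

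Whether restoring CREB changed receptor genes was asked by comparing the CREB libraries with GFP at 8 h. No receptor gene passed the test with any form of CREB. Over all 4 forms together, limma called 0 of 28 genes at an adjusted p under 0.05, against 0.0248% of all 12085 genes tested. An unadjusted p under 0.05 was reached by 5 of 28, against 5.12% of all genes, 3 on the higher side, Gabrg1 and Gabrb2 among them, and Grid1 and Grik5 on the lower. The median difference of the 28 genes was 0.08 on the log2 scale and that of all genes 0.01. By class it was 0.17 for GABA-A, with 10 of 12 genes higher, 0.15 (0.145) for AMPA, with 4 of 4 higher, and -0.03 for NMDA, with 2 of 5 higher. Over all genes tested, 52% were higher. Without the run D1 libraries of S40A-S133A and S133A, 2 of 28 genes had an unadjusted p under 0.05, against 4.21% of all genes, and the median was 0.054.

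Gabrg1, the gamma1 subunit gene of a less common GABA-A receptor, gave the smallest unadjusted p of the set. Its levels in run D2 were 3.95 scaled FPKM with S40A-S133A, 3.48 with S133A, 3.48 with S40A and 3.26 with WT, against 2.88 with GFP. In run D1 they were 4.14, 3.62, 3.38 and 3.08 with the same 4 viruses in that order, against 2.55 with GFP. GFP was the lowest library in both runs. In run C2 the levels were 2.92 with S40A and 2.85 with WT, against 1.95 with GFP. In run C1 they were 4.37 with S40A and 2.97 with WT, against 2.50 with GFP. GFP was thus the lowest library in 4 of 4 runs at 8 h, although the 12 CREB libraries (2.85 to 4.37) and the 4 GFP libraries (1.95 to 2.88) overlapped. The mean was 3.46 ± 0.491 (SD, n = 12) with CREB and 2.47 ± 0.38 (SD, n = 4) with GFP. The log2 difference was 0.37 ± 0.19 (95% interval), with an adjusted p of 0.832 by limma over all genes. Without the run D1 libraries of S40A-S133A and S133A the difference was 0.356. It was 0.184 with a pseudocount of 5 in place of 1 and 0.477 with a pseudocount of 0.1, and 0.31 to 0.423 with single libraries left out. Adjusted p ranged between 0.252 and 1 over the alternatives.

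Taken by form, limma called 0 of 28 genes for S40A-S133A minus GFP, against 0.0165% of all genes, 0 for S133A minus GFP (0.0248%), 0 for S40A minus GFP (0.00827%) and 0 for WT minus GFP (0.00827%). For S40A-S133A, 4 genes had an unadjusted p under 0.05, 3 higher and 1 lower (3.49% of all genes, 1.67% higher and 1.82% lower). For S133A there were 2, Gabrg1 higher and Grid1 lower (2.37%, 1.06% higher and 1.32% lower). For S40A there were 6, of which 5 were higher and Grid1 lower (5.89%, 3.81% higher and 2.09% lower). For WT it was Gabrg1 alone (1.07%, 0.579% higher). Gabrg1 was thus among them with every form. With S40A, 20 of 28 genes were higher than with GFP, against 52.6% of all genes, among them 12 of 12 GABA-A receptor genes. By run, 20 of 28 were higher in C1 (median 0.368) and 21 in D1 (0.139), but 14 in C2 (0.026) and 14 in D2 (0.004). The summed inhibitory neuron markers stood at 516 scaled FPKM with S40A, against 386 with GFP, in run C1 and at 413, against 266, in D1. In C2 they stood at 411 with S40A, against 488 with GFP, and in D2 at 538, against 507. Runs C1 and C2 were split by replicate number alone. With their GFP libraries exchanged, the marker sums with S40A and GFP were 516 against 488 and 411 against 386. The part of the markers was not tested. With S40A-S133A, 19 of 28 genes were higher than with GFP, against 51.4% of all genes. Without the run D1 libraries of S40A-S133A and S133A, 17 of 28 genes were higher with S40A-S133A and 18 with S133A, and 1 and 0 genes had an unadjusted p under 0.05, against 1.11% and 2.78% of all genes. All 4 forms share the same GFP libraries.

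The differences of single genes were small. Gabrg1 differed from GFP by 0.50 ± 0.29 with S40A-S133A, 0.36 ± 0.29 with S133A, 0.39 ± 0.22 with S40A and 0.23 ± 0.22 with WT (log2, 95% interval). Gria4 encodes an AMPA receptor subunit of the early cortex. With S40A, Gria4 stood at 16.54 to 21.6 scaled FPKM, against 11.7 to 15.7 with GFP, a difference of 0.37 ± 0.35 with an adjusted p of 0.838. In Gria4 and Gabrg1 the S40A and GFP groups did not overlap, 2 of 28 genes against 3.17% of all genes. With S133A, Grik5 stood at 59.3 and 60.1, against 60.8 to 74.5 with GFP, a difference of -0.22 ± 0.23. With S40A-S133A, Gabra4 stood at 4.92 and 7.60, against 4.17 to 4.79 with GFP, and Gabrb2 at 18.6 and 21.2, against 15.1 to 18.2. Gabra4 thus differed from GFP by 0.433 with S40A-S133A, and by 0.163 without the run D1 libraries. Within run D1 the Gabra4 difference from GFP was 0.733 with S40A-S133A and 0.83 with S133A, and within run D2 it was 0.137 and 0.083. The groups did not overlap for 2 of 28 genes with S133A (Gabrg1 and Grik5, against 7.87% of all genes) and for 4 of 28 with S40A-S133A (Gabrg1, Gabra4 and Gabrb2 among them, against 9.21%). Grin1 differed from GFP by -0.14 ± 0.41, -0.06 ± 0.41, 0.20 ± 0.31 and -0.13 ± 0.31 with S40A-S133A, S133A, S40A and WT. Its direction differed between runs for each of these 4 forms. For S40A it was 0.53 in run C1 and 0.50 in D1 but -0.23 in C2 and -0.01 in D2.

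**Figure D3:**
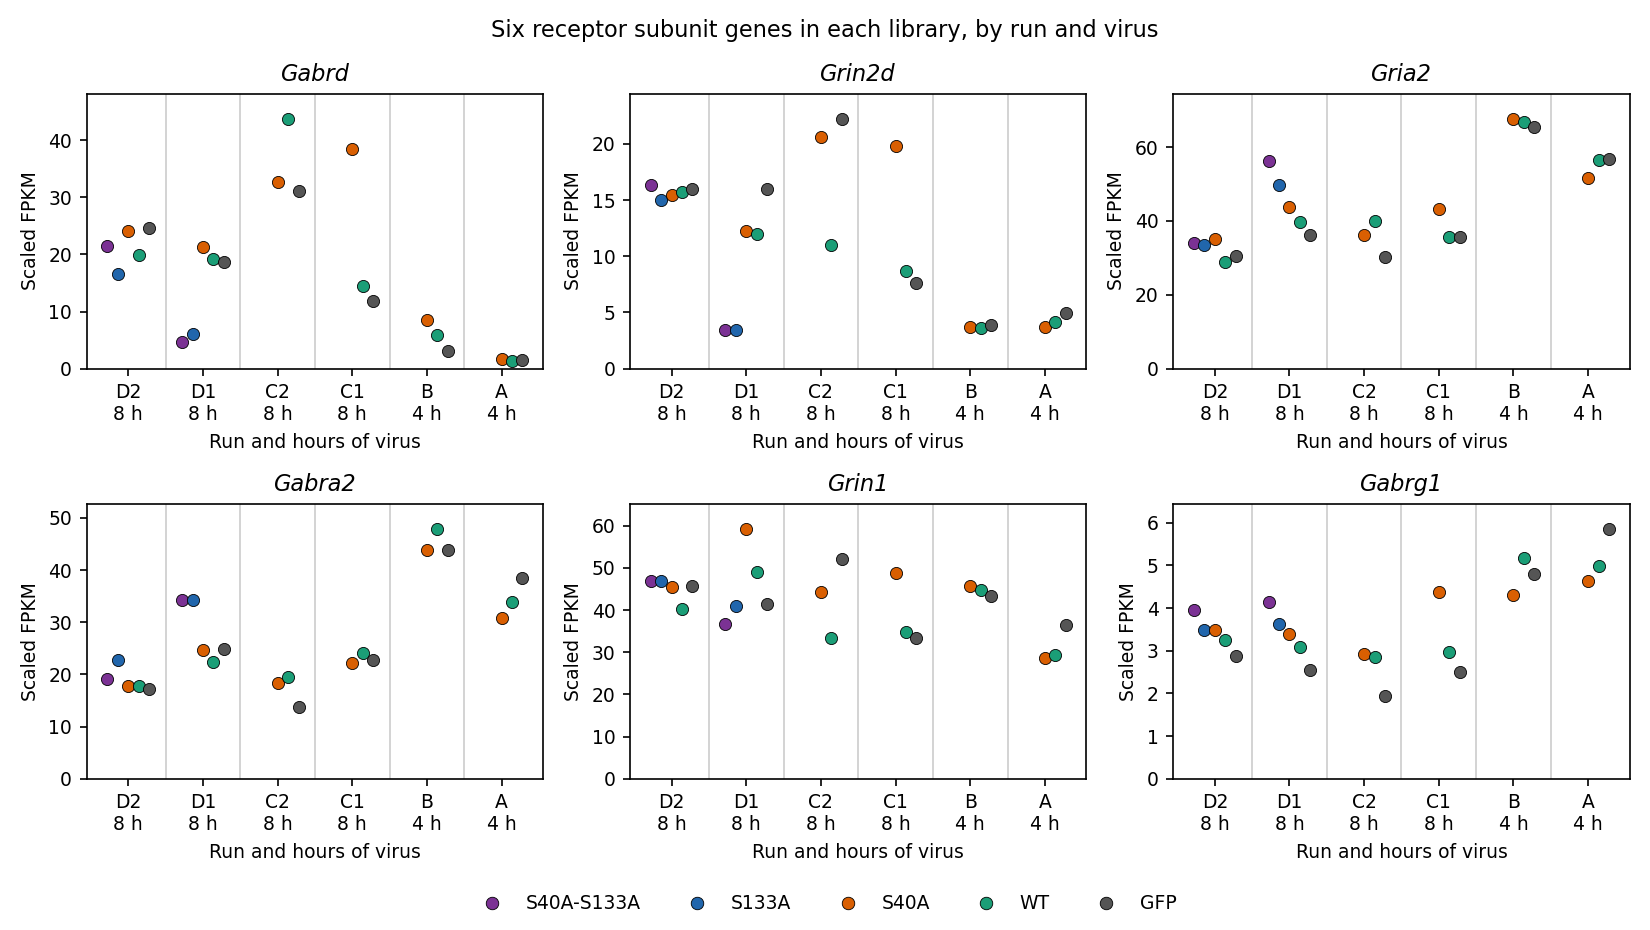
Scaled FPKM of Gabrd, Grin2d, Gria2, Gabra2, Grin1 and Gabrg1 in each of the 22 libraries, by run and hours of virus, with 1 point per library coloured by virus. Gabrg1 is lowest with GFP in the 4 runs at 8 h (1.95 to 2.88), and Gabrd and Grin2d are low in the S40A-S133A and S133A libraries of run D1 (4.59 and 6.12 for Gabrd).

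The comparison of S40A with WT at 8 h addresses the glycosylation site. Limma called 0 of 28 receptor genes, as it called 0% of all genes. Gabra4, Grik3 and Grin1 had an unadjusted p under 0.05 (3 of 28, against 4.11% of all genes). The direction was mostly upward, with 20 of 28 genes higher and a median of 0.13, against 52.1% of all genes and a median below 0.01. GABA-A receptor genes were higher in 11 of 12 cases, with a median of 0.20. By run, the median over the 28 genes was 0.297 in C1, 0.01 in C2, 0.105 in D1 and 0.043 in D2, and so was largest in run C1. Some markers differed beside it. Syt1, a synaptic vesicle gene of neurons, was higher with S40A in 4 of 4 runs. It stood at 83.5, 63.7, 66.1 and 51.7 scaled FPKM in C1, C2, D1 and D2, against 47.9, 57.8, 53.5 and 36.2 with WT. The summed neuronal markers, Syt1 among them, were 729.9, 673.5, 893.7 and 713.5 with S40A, against 751.6, 615.3, 843.4 and 632.5 with WT. The sums were thus lower with S40A in run C1 and higher in the other runs. The run C2 library of WT stood apart in its markers. Slc17a7, a marker of mature excitatory neurons, stood at 82.9 in run C2 with S40A, against 18.6 with WT. The summed excitatory neuron markers, Slc17a7 among them, differed less, at 277 with S40A, against 249 with WT. The rest of that list was thus lower in sum with S40A than with WT, the opposite of Slc17a7. The summed inhibitory neuron markers stood at 411 with S40A, against 654 with WT, and the microglial markers at 4.44, against 25.5. Without that WT library 19 of 28 genes were higher, with a median of 0.141, and 2 had an unadjusted p under 0.05, against 3.05% of all genes. The part of Syt1 was not tested.

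Grin1 levels in the runs C1, C2, D1 and D2 were 48.9, 44.3, 59.2 and 45.4 scaled FPKM with S40A, against 34.8, 33.3, 49.1 and 40.2 with WT. S40A was higher in 4 of 4 runs, while the groups overlapped across runs. The difference was 0.33 ± 0.31 (log2, 95% interval), with an adjusted p of 1 by limma. Grik3, a kainate subunit gene, stood at 5.45, 5.92, 7.94 and 12.2 in these runs with S40A, against 10.8, 9.88, 9.34 and 14.0 with WT, lower in 4 of 4 runs and by 0.48 on average (-0.48 ± 0.45). Gabra4, whose subunit often pairs with the delta subunit, differed by 0.47 ± 0.42. Its levels were 8.59, 5.62, 6.33 and 4.44 with S40A, against 4.73, 3.24, 4.61 and 4.07 with WT. Grik2 was the gene whose groups did not overlap (1 of 28, against 2.75% of all genes), at 10.5 to 12.1 with S40A, against 12.5 to 13.6 with WT, a difference of -0.20 ± 0.24. Gabrg1 differed by 0.16 ± 0.22.

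**Figure D4:**
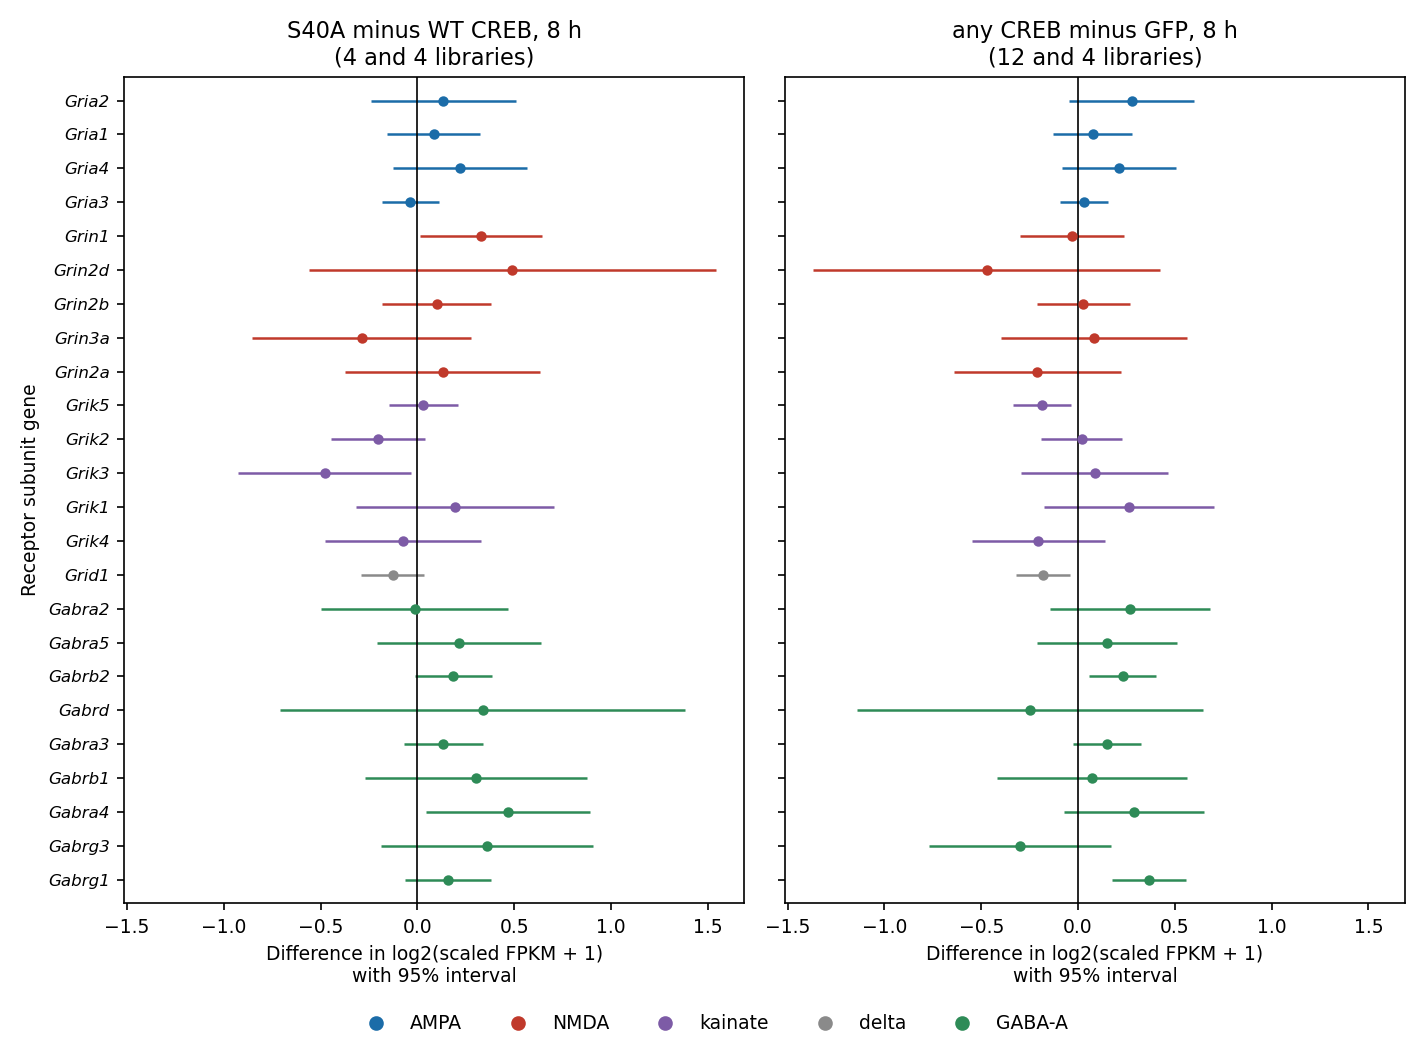
Differences in log2(scaled FPKM + 1) with 95% intervals (points and lines) for 24 measured receptor subunit genes, for S40A minus WT (left) and any form of CREB minus GFP (right) at 8 h. Grin1 lies at 0.33 ± 0.31 for S40A minus WT, and Gabrg1 lies at 0.37 ± 0.19 for any CREB minus GFP.

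Loss of the phosphorylation site was compared in the same way. Limma called 0 of 28 genes for S133A minus WT (0.0165% of all genes) and 0 for S40A-S133A minus WT (0.00827%), with 1 and 0 at an unadjusted p under 0.05. The background was 1.39% of all genes for S133A, 0.703% higher and 0.687% lower, and 1.58% for S40A-S133A. The 1 gene was Gabra4, and 15 of 28 genes were higher with S133A than with WT, against 53.1% of all genes. Gabra4 differed from WT by 0.55 ± 0.55 with S133A and by 0.53 ± 0.55 with S40A-S133A. In both groups the run D1 library was the high one. Within run D1 the Gabra4 difference from WT was 0.715 with S133A and 0.618 with S40A-S133A, and within run D2 it was 0.168 and 0.223. Without the run D1 libraries of the 2 forms it was 0.21 ± 0.59 (0.209) with S133A and 0.26 ± 0.59 (0.263) with S40A-S133A, and 0 of 28 genes had an unadjusted p under 0.05 in either comparison, against 2.22% and 0.894% of all genes. Gabrg1 did not overlap with WT (2.85 to 3.26) in either group, at 3.48 and 3.62 with S133A and 3.95 and 4.14 with S40A-S133A. Its differences were 0.13 ± 0.29 and 0.28 ± 0.29. The groups did not overlap for 2 of 28 genes in each comparison, Gabrg1 and Grik2 for S133A (5.96% of all genes) and Gabrg1 and Gabra4 for S40A-S133A (6.12%). Grik2 stood at 12.1 and 12.4 with S133A, against 12.5 to 13.6 with WT. Grin1 differed from WT by 0.07 ± 0.41 with S133A and by -0.01 ± 0.41 with S40A-S133A.

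With both forms that lack S133 set against both that keep it, limma called 0 of 28 genes (0.0248% of all genes) and 1 at an unadjusted p under 0.05 (3.09%), Gabrd. Its difference was -1.08 ± 1.00. Within run D1 it was -1.75 and within run D2 -0.205. Grin2d, which did not pass, had differences of -1.57 in run D1 and 0.01 in D2. In run D1 Grin2d stood at 3.42 scaled FPKM with S40A-S133A and 3.40 with S133A, against 12.3 with S40A, 12.0 with WT and 15.9 with GFP. In run D2 the 5 libraries lay between 15.1 and 16.3. Grik1 differed by 0.684 in run D1 and -0.005 in D2, and Gria2 by 0.336 in D1 and 0.087 in D2. The differences of these 4 genes, 3 of them chosen after their values were seen, lay mostly in run D1. Over all 28 genes the median was -0.001 in run D1 with 14 higher, and 0.046 in run D2 with 22 higher. The vesicular transporter gene Slc17a7 stood at 30.1 and 31.3 in the same run D1 libraries with S40A-S133A and S133A, against 84.1 to 92.1 in the other 3. Its part in the result was not tested. The summed excitatory neuron markers, Slc17a7 among them, were 304 and 332 there, against 329 to 376 in the others. The rest of that list did not share the difference of Slc17a7 in sum. The summed neuronal markers were 883 and 915, against 755 to 894. Without these libraries 0 of 28 genes were called too (0.182% of all genes), 0 had an unadjusted p under 0.05 (2.57%), and Gabrd differed by -0.26 ± 0.97. With both forms that lack S40 set against both that keep it, 0 of 28 genes were called (0.0165% of all genes) and 0 reached an unadjusted p under 0.05 (0.538%), and 21 of 28 were higher against 51.1% of all genes, or 18 of 28 without the run D1 libraries. Grin1 differed by -0.13 ± 0.30 for loss of S133 and 0.12 ± 0.27 for loss of S40, and Gabrg1 by 0.13 ± 0.21 and 0.15 ± 0.19.

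After 4 h of virus, limma called 0 of 28 genes for WT minus GFP (0.0993% of all genes), S40A minus GFP (0.091%) and S40A minus WT (0.091%). None had an unadjusted p under 0.05 in any of them (0 each), against 0.348%, 0.488% and 0.314% of all genes. The intervals were wide. Grin1 differed by -0.13 ± 0.87, -0.13 ± 0.87 and 0.00 ± 0.87 (-0.004) in the 3 comparisons. That fit does not hold the run, although libraries of the same run deviated together at 4 h. With the run as a replicate block the differences were the same and the Grin1 interval narrowed to ± 0.37. With the block 0 of 28 genes were called in each, and 0, 0 and 1 had an unadjusted p under 0.05, against 2.31%, 2.97% and 1.53% of all genes. The 1 was Gabrb1, a beta subunit gene, in S40A minus WT (-0.27 ± 0.25). Gabrg1 stood at 4.64 and 4.31 with S40A and at 4.99 and 5.16 with WT, against 5.86 and 4.81 with GFP. Here GFP was the highest library in run A and the middle one in run B, unlike at 8 h. The change in the difference between CREB and GFP from 4 h to 8 h was not tested. Gabrg1 differed by -0.05 ± 0.44 for WT minus GFP, -0.21 ± 0.44 for S40A minus GFP and -0.15 ± 0.44 for S40A minus WT, with intervals of ± 0.33 under the block. Groups of 2 did not overlap for 1, 3 and 1 of 28 genes in the 3 comparisons, against 9.24%, 9.56% and 8.99% of all genes. Grin2d and Gabrg1 were among those of S40A minus GFP, and Gabrg1 was that of S40A minus WT. The difference in the effect of S40A minus WT between 8 h and 4 h was tested directly, and 0 of 28 genes were called by limma (0.0248% of all genes), with 0 at an unadjusted p under 0.05 (0.852%), or 3 with the replicate block (2.67%). It was 0.33 ± 0.65 for Grin1 and 0.31 ± 0.38 for Gabrg1.

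Larger differences appeared between the GFP libraries of 8 h and 4 h. Limma called 7 of 28 receptor genes, 2 higher and 5 lower at 8 h, against 11.6% of all genes (6.96% higher and 4.60% lower). Time and run cannot be told apart here, because no run holds both times. Gria2 was called among the AMPA genes and the others are GABA-A receptor genes, so the class count was 6 of 12 for GABA-A and 1 of 4 for AMPA, with 0 of 5 NMDA, 0 of 5 kainate and 0 of 2 delta. The median of the 28 genes was -0.33 and that of all genes -0.03 (-0.025).

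Gabrg1 stood at 2.50, 1.95, 2.55 and 2.88 scaled FPKM at 8 h, against 5.86 and 4.81 at 4 h. It fell by 0.87 ± 0.27 on the log2 scale, with an adjusted p of 0.00146 by limma. Its neighbours on chromosome 5 lay in the same direction. Gabra2 stood at 22.8, 13.8, 24.9 and 17.2 at 8 h, against 38.6 and 43.9 at 4 h, and fell by 1.06 (adjusted p 0.0207). Gabra4 stood at 4.79, 4.65, 4.17 and 4.38 at 8 h, against 9.63 and 8.15 at 4 h, and fell by 0.84 (adjusted p 0.0242). Gabrb1, the remaining gene of that cluster, differed by -0.80 with an adjusted p of 0.121. In each of these 4 genes, every GFP library at 8 h lay below both GFP libraries at 4 h. The cluster genes occupy chr5:70751047-72137244 (mm10) in the order Gabrg1, Gabra2, Gabra4, Gabrb1.

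Gria2, Gabrd and Gabrg3 were also called. Gria2 stood at 35.7, 30.2, 36.3 and 30.4 scaled FPKM at 8 h, against 56.8 and 65.4 at 4 h, and fell by 0.87 (-0.865, adjusted p 0.0161). The groups did not overlap. Gabrd rose to 11.8, 31.2, 18.6 and 24.6 at 8 h, against 1.55 and 3.04 at 4 h, a log2 difference of 2.73 ± 1.38 (adjusted p 0.0162). Gabrg3, the gamma3 subunit gene on chromosome 7, rose to 4.38, 6.94, 6.82 and 7.48 at 8 h, against 2.12 and 3.06 at 4 h, a difference of 1.04 (adjusted p 0.0445). Gabra5, its neighbour on chromosome 7, lay in the opposite direction at -0.59 without a call (adjusted p 0.143). Grin2d had the largest uncalled difference, at 7.66 to 22.3 at 8 h, against 3.89 and 4.99 at 4 h (1.52 ± 1.11, adjusted p 0.0735). Grin1 differed by 0.10 ± 0.46. Groups did not overlap for 15 of 28 genes, against 32.8% of all genes.

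**Figure D5:**
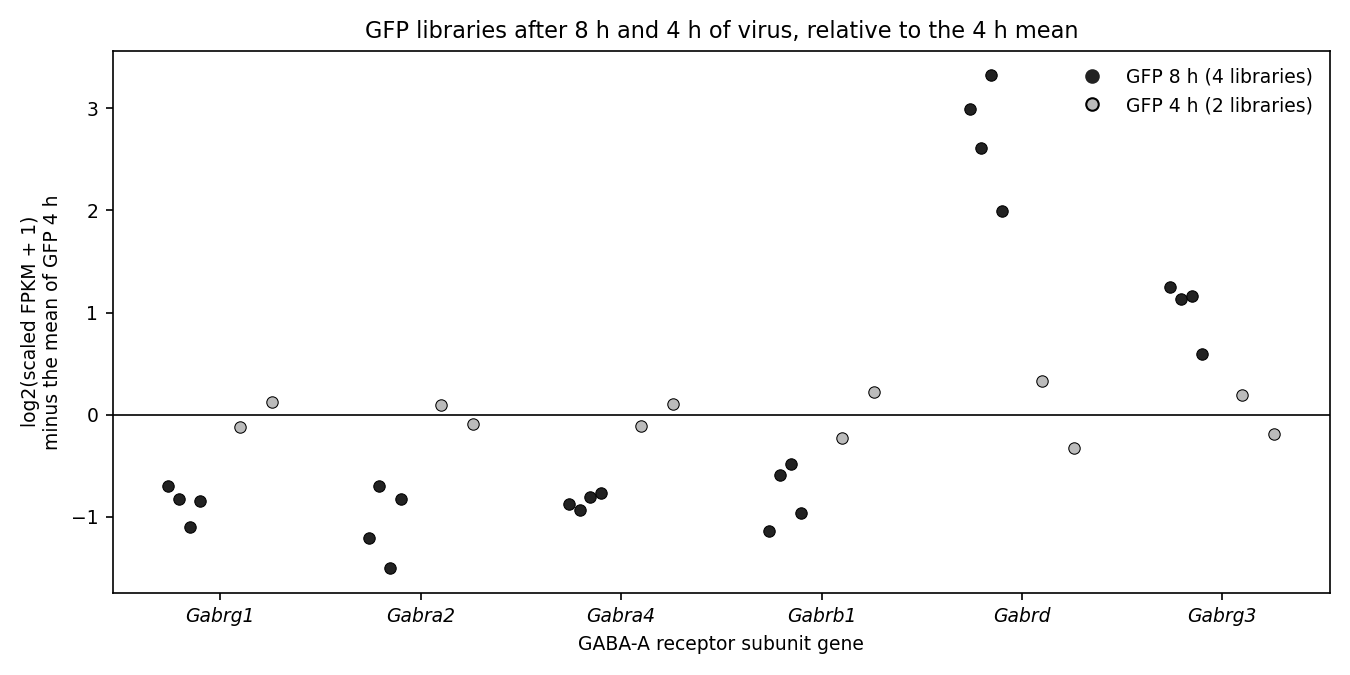
Difference of log2(scaled FPKM + 1) from the mean of the GFP 4 h libraries for 6 GABA-A receptor subunit genes, with 1 point per GFP library (4 at 8 h, dark, on the left of each pair, and 2 at 4 h, light). Gabrg1, Gabra2, Gabra4 and Gabrb1 lie below the 4 h libraries and Gabrd and Gabrg3 above them.

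The number of calls depended on the model, as did that over all genes. With the run as a replicate block, 16 of the 28 genes were called, against 30.8% of all genes. With the GFP groups alone in the fit 0 were called (0.505% of all genes), and with array weights 0 (3.34%). Without GFP replicate 2 at 8 h 3 were called (7.39%), without GFP replicate 1 at 4 h 1 (2.37%), without GFP replicate 2 at 4 h 2 (5.63%), and without both run A and GFP replicate 2 at 8 h 2 (5.86%). With single libraries left out the difference in Gabrg1 stayed between -0.99 and -0.75 and that in Gria2 between -0.965 and -0.765. Marker genes differed as well. The summed inhibitory neuron markers were 266 to 507 scaled FPKM at 8 h, against 534 and 747 at 4 h, those of dividing progenitors 29.4 to 71.7 at 8 h, against 79.2 and 82.3 at 4 h, and those of astrocytes and radial glia 79.6 to 234 at 8 h, against 233 and 273 at 4 h. None of the genes of these 3 lists was at 0 in all libraries. The summed excitatory markers were 258 to 420 at 8 h, against 236 and 257 at 4 h. Gad1, the GABA-synthesizing enzyme gene, fell to 35.2, 50.1, 41.3 and 70.2 at 8 h, against 127.7 and 96.9 at 4 h (adjusted p 0.0287). Their part in the receptor result was not tested.

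Runs of the same time were compared to show how far receptor genes vary without a change of virus or time. In run B minus run A at 4 h, with virus in the model and 3 libraries per run, limma called 13 of 28 genes, 9 higher and 4 lower, against 40.8% of all genes (20.0% higher and 20.8% lower). Grin2b stood at 9.87 to 11.1 scaled FPKM in run B, against 3.09 to 4.17 in run A, and rose by 1.35 (adjusted p 0.0101). Grin2b made up 64.1% to 66.9% of the summed Grin2 level in run B, against 37.4% to 38.6% in run A. The other genes that rose were Gabrd (1.34), Grid1 (0.78), Gria1 (0.57), Gabrg3 (0.53), Grin1 (0.50), Grik2 (0.43), Gabra2 (0.39) and Gria2 (0.27), all higher in 3 of 3 viruses. Gabra3 (-0.57), Gabrb1 (-0.52) and Grik1 (-0.36) were among those that fell, each in 3 of 3 viruses. Gria2 was -0.002 without scaling between libraries. Gabrg1 differed by -0.10 ± 0.27. Groups did not overlap for 20 of 28 genes, against 63.8% of all genes. The count was 0 without any 1 of the WT or S40A libraries, where 3.96% to 5.49% of all genes were called, and 15 without either GFP library (44.0% and 44.1%). With single libraries left out the difference stayed between 1.25 and 1.49 for Grin2b, 1.11 and 1.68 for Gabrd, and 0.706 and 0.886 for Grid1. The median over the 28 genes was 0.316 with S40A and 0.272 with WT, against 0.007 with GFP. The summed astrocyte and radial glia markers stood at 229 (S40A), 166 (WT) and 273 (GFP) scaled FPKM in run B, against 715, 575 and 233 in run A, and so differed most with the same 2 viruses. Homer1, a postsynaptic scaffold gene whose short form is induced by activity, stood at 221 to 280 in run B, against 26.4 to 30.7 in run A. Low FPKM values also had a different form in run A, as given above. The part of these in the result was not tested.

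In run D2 minus run D1 at 8 h, with 5 libraries per run, limma called 8 of 28 genes, 1 higher and 7 lower, against 30.3% of all genes (13.3% higher and 17.0% lower). Gria2 fell to 28.8 to 35.1 scaled FPKM in run D2, against 36.3 to 56.2 in run D1 (-0.45, adjusted p 0.0126). Gabra2 fell by 0.53 and Gabrb1 by 0.61, in 5 of 5 viruses each. Gabra5 (-0.40), Gabrb2 (-0.16) and Gria1 (-0.16) fell too, and Grin2a rose to 1.24 to 1.52 in run D2, against 0.718 to 1.23 in run D1 (0.25). Without the run D1 libraries of S40A-S133A and S133A, 0 of the 28 were called, as were 0 of all genes, while 11 had an unadjusted p under 0.05 (32.7% of all genes). There Gabra2 differed by -0.425 and Gria2 by -0.336. Without any 1 of the S40A-S133A, S133A, S40A or WT libraries 3 to 5 were called, against 13.1% to 15.7% of all genes. Groups did not overlap for 7 of 28 genes, against 23% of all genes, among them the uncalled Grin2b (-0.24). Grin1 differed by 0.00 ± 0.31 (0.001) and Gabrg1 by 0.02 ± 0.12. Homer1 again differed, at 111.5 to 177.6 in run D2, against 26.8 to 55.1 in run D1, and its part was not tested.

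Of a list of other genes of these receptor pathways (auxiliary subunits, scaffolds, metabotropic receptors, transmitter synthesis and transport, chloride transporters and glycine receptors), 65 were measured, and limma called 0 of them in every virus comparison above (0% to 0.0993% of all genes), with 0 to 5 at an unadjusted p under 0.05 (0.314% to 5.89% of all genes). The largest non-overlapping difference for S40A minus WT at 8 h was in Slc12a5, the neuronal chloride exporter gene KCC2, at 34.1 to 37.5 scaled FPKM with S40A, against 19.5 to 33.5 with WT (0.41, adjusted p 1). For S40A minus GFP it was in Glrb, the glycine receptor beta subunit gene, at 20.98 to 26.9 with S40A, against 16.3 to 19.0 with GFP (0.415, adjusted p 0.721). Between GFP libraries of 8 h and 4 h, 6 of the 65 rose and 7 fell, against 6.96% and 4.60% of all genes. Among those that rose were Shisa9, an AMPA receptor auxiliary gene, at 19.4 to 24.6 at 8 h, against 13.2 and 13.6 at 4 h (0.67), Gabbr2, a GABA-B receptor subunit gene, at 56.0 to 87.1 at 8 h, against 31.0 and 40.2 at 4 h (1.00, adjusted p 0.0108), and Shank2. Neto1, a kainate receptor auxiliary gene, fell to 7.98 to 11.3 at 8 h, against 14.99 and 23.3 at 4 h (-0.91, adjusted p 0.00741). In run B minus run A, 21 of the 65 rose and 8 fell, against 20.0% and 20.8% of all genes. In run D2 minus run D1, 7 rose and 5 fell, against 13.3% and 17.0%.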

How the data were processed

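RNA was measured by sequencing in 22 libraries, and the authors deposited 1 Cufflinks table per library with FPKM values and their confidence bounds for 24490 gene entries, per the file headers. The submitters' processing notes name CASAVA 1.7, Bowtie 0.12.2, Cufflinks and the builds mm8 and mm10; their roles, the use of strand and the handling of reads that match several genes are not given in the sources used here. Gene positions in the files fall on mm10. FPKM values carry no counts. Depth was estimated from the most frequent low value, taken as 1 read after allowing for transcript length. That value was sharply marked in run A and GFP replicate 2 at 8 h only, so the depth of the other libraries is rough.

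FPKM values were scaled by median of ratios (factors 0.86 to 1.112), and log2(value + 1) was fitted with limma 3.58.1 in R 4.3.3 over 12085 genes with a mean of at least 1 and no failed estimate. Of 12106 genes above the minimum, 21 had one. Fold changes on this scale understate those of low genes. The Benjamini-Hochberg adjustment covered all genes tested, with a threshold of 0.05. The 8 h fit held the 16 libraries of that time with the library set (runs C or D) as a term, the 4 h fit 6 libraries, and the comparison of times all 22. At 4 h, libraries of the same run deviated together (correlations 0.544 to 0.562), so the numbers were taken as pairing there, and at 8 h they were not. The 4 h values come from the fit without the block, which the design fixed, with blocked values beside them. The fit with runs as a block left 0 of the 28 receptor genes called in every comparison of viruses. Tables were made with pandas 2.3.3 and numpy 2.4.6 under Python 3.11.15 and figures with matplotlib 3.10.9. The procedure was tested on simulated data.

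The genes, the gene lists and the tests were chosen with earlier results of these data known. Genes named are Grin1 and Gabrg1 in each comparison, every called gene, the 3 largest non-overlapping differences in each direction and the highest gene of each class, with 2 per direction for the pathway list; others were chosen after their values were seen. Alternatives covered the pseudocount, the filter, the scaling, failed estimates, the covariate, the libraries in the fit, array weights and each replicate left out. Some genes and 1 promoter are not reported here and are left out of the figures, while counts cover all 28.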

Additional observations from a re-analysis of the deposited data

Results flagged for a closer look

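Grik2, the gene of a kainate receptor subunit that can form channels alone, stood at 8.32 scaled FPKM in GFP replicate 2 at 8 h, far below the other GFP libraries of that time, which lay between 12.9 and 13.6. The gap to the nearest of them was 0.872 of the range of the group. It was the 1 library to stand out in this way among 84 groups of 4 libraries examined, and chance alone gives about 1 in 20 such groups.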

How the results depend on the processing

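In every comparison of viruses the number of called receptor genes was 0 under each alternative run. For GFP 8 h minus 4 h the count of 7 became 16 with the replicate block (run), 0 with the GFP groups alone in the fit, 0 with array weights, 2 without run A and GFP replicate 2 at 8 h, and 1 to 9 with single replicates left out. Calls over all genes moved with it, to 3725 with the block, against 1397 without it, of 12085. For run B minus run A the count of 13 became 0 to 15 with single replicates left out. For run D2 minus run D1 the count of 8 became 3 to 9 with single replicates left out and 0 without the run D1 libraries of S133A and S40A-S133A. With those pairs of libraries out, S133A and S40A-S133A keep 1 library each, which was assumed to vary like the other groups.

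Small differences turned sign. Grin1 in S133A minus GFP (-0.061) was 0.037 without the covariate, 0.008 with the compared groups alone, 0.007 with array weights, 0.032 without the D1 libraries and -0.154 to 0.035 with single replicates left out. In S40A-S133A minus GFP it was 0.033 without the D1 libraries and -0.314 to 0.033 with replicates left out. In S133A minus WT it was -0.021 with the compared groups alone and -0.023 to 0.185 with replicates left out. In S40A-S133A minus WT it was 0.088 without the covariate, 0.164 without the D1 libraries and -0.184 to 0.164 with replicates left out. In any CREB minus GFP it was 0.016 without the covariate, 0.052 with array weights, 0.033 without the D1 libraries and -0.11 to 0.086 with replicates left out. In WT minus GFP at 8 h it was -0.222 to 0.013 with replicates left out. At 4 h these ranges were -0.421 to 0.169 for WT minus GFP, -0.459 to 0.199 for S40A minus GFP and -0.333 to 0.325 for S40A minus WT, which was also 0.033 without scaling and 0.016 with upper-quartile scaling. In GFP 8 h minus 4 h Grin1 was -0.166 without run A and GFP replicate 2 at 8 h and -0.042 to 0.225 with replicates left out. In run D2 minus run D1 it was -0.125 without scaling, -0.019 with upper-quartile scaling, -0.101 with array weights, -0.175 without the D1 libraries and -0.085 to 0.096 with replicates left out. Gabrg1 there was -0.074 without scaling and -0.002 to 0.044 with replicates left out, and in WT minus GFP at 4 h -0.174 to 0.066. Gria2 in run B minus run A was -0.002 without scaling. The cause was not tested for any of these.

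At 8 h same-numbered libraries correlated between -0.042 and 0.397. The replicate block there moved the number of receptor genes at an unadjusted p under 0.05 to 7 for S40A-S133A minus GFP (4 without it), 8 for S133A minus GFP (2), 9 for S40A minus GFP (6), 9 for any CREB minus GFP (5), 5 for S40A-S133A minus WT (0), 2 for S133A minus WT (1), 4 for S40A minus WT (3), 6 for loss of S133 (1) and 1 for loss of S40 (0), and left 1 for WT minus GFP. The share of all genes at that p rose too, to 1.30% to 10.5% with the block, against 0.538% to 5.89% without it. That share is given here as a range over the comparisons and not for each one. The counts with the block therefore cannot be weighed comparison by comparison. They are not read here as a result about the receptor genes, and none of these genes was called with the block. Genes with a mean under 1 scaled FPKM were not tested, and the 4 h comparisons had 3 residual degrees of freedom.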

Other observations

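The balance of inhibitory to excitatory receptor transcripts varied across libraries. The summed GABA-A level over the summed ionotropic glutamate level ranged from 0.593 to 0.907, with a median of 0.727 over the 22 libraries. For S40A minus WT at 8 h, Grin2d differed by 1.099 in C1 and 0.85 in C2, against 0.03 in D1 and -0.02 in D2. The difference between sets was not tested.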
